A study of Mus musculus with 12 samples.

Results

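The stalk of the large ribosomal subunit was followed through its 4 genes, Rplp0, Rplp1, Rplp2 and Rpl12, in KPC cells treated with cisplatin (Cis). The genes were taken by symbol, 4 of the 15803 genes with a read in any library, and each of them was read in all 12 libraries. They were chosen on measured values, with their footprints per RNA at 21 h against PBS already known. Their values at 21 h are therefore a description without a test, and only the comparison of 6 h with PBS was tested on them. It used the same PBS libraries as the choice, and its fit took the spread from the 21 h libraries too. The test at 6 h is thus not independent of the choice.

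The stalk is the flexible arm of the large subunit that catches the GTPases of translation. Its base is the protein P0 (gene Rplp0), which holds on to ribosomal RNA beside L12 (gene Rpl12). P0 carries heterodimers of the small acidic proteins P1 and P2 (genes Rplp1 and Rplp2), and the shared tail of P0, P1 and P2 touches elongation factors such as eEF2. The stalk is also known as an activator of GCN2, a kinase that slows initiation in stressed cells.

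KPC is a mouse pancreatic ductal adenocarcinoma line from a mouse tumour model driven by Pdx1-Cre, which acts in pancreatic cells, and all groups share this background. Cells received PBS, Cis (20 µM) for 6 h, or Cis for 21 h, and lysates made with cycloheximide gave libraries of ribosome footprints and of RNA, 2 per group and assay. The labels call the control untreated wild-type cells where the methods name PBS, and its duration is not labelled. For these libraries neither the labels nor the methods say whether the 2 of a group came from separate cultures, so that p-values measure the spread between these libraries, which may be technical. Footprint libraries held 3375480 to 5204127 reads and RNA libraries 1985344 to 2901692. In each RNA library 51.8% to 56.6% of the reads fell on Lars2, Tmem38b and Mettl26, which left 862476 to 1341584 reads for all other genes. Of 7 markers of ductal epithelium, 6 had a mean RNA level of at least 1 RPKM, led by Krt8, Krt18 and Krt19, while Epcam lay at 0.204 RPKM. Markers of fibroblasts, leukocytes, endothelium and acinar or islet cells summed to at most 4.47 RPKM per list in any RNA library. Within bulk lysates, a change in the share of cells and a change per cell cannot be told apart.

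Values are RPKM, that is reads divided by length and by the total of the library, brought within each assay to a common median ratio between libraries. A change shared by all genes is removed by this, so every rise or fall here is relative to the other genes. The paper reports less protein synthesis under Cis by a puromycin assay, and such a general fall cannot be seen in these values. Footprints were counted over the coding sequence and RNA over the whole transcript. The coding sequences were short, with 317 codons for Rplp0 (ENSMUSG00000067274), 165 for Rpl12 (ENSMUSG00000038900), 115 for Rplp2 (ENSMUSG00000025508) and 114 for Rplp1 (ENSMUSG00000007892). The coding part made up 70.0% and 68.5% of the transcript used for Rplp0 and Rplp1 but only 39.9% and 35.8% of those used for Rpl12 and Rplp2, whose RNA level per length depends on these long transcripts. RefSeq lists 5 pseudogenes named after the 4 genes, none of them in these files, so reads shared with near-identical copies are an uncertainty of every value here.

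The start of transcription is shown because mRNAs of ribosomal proteins are known for a run of pyrimidines at their first bases, through which their translation can be controlled. RefSeq (GRCm38.p6) gave promoters for 3 of the 4 genes, Rplp1 being the other. The 30 bases around the annotated start are printed 5′ to 3′, 15 on each side, on the plus strand, with the longest unbroken run of C and T in capitals.
Rplp0, chr5:115559452-115559481: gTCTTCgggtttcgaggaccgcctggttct
Rplp2, chr7:141447636-141447665: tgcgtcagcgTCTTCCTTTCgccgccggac
Rpl12, chr2:32961697-32961726: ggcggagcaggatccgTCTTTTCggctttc

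Rplp2 had the longest run, 10 bases from position -5, across the annotated start. Rpl12 had 7 bases from position 2, and Rplp0 had 5 bases from position -14, wholly before the start. A run of at least 10 stood in 5.34% of the 32851 RefSeq promoters, one of at least 7 in 18.6% and one of at least 5 in 47.3%. On the other strand of the same windows a run of at least 5 stood in 50.8% of promoters, and the longest runs of the members there were 5 (Rplp0), 4 (Rpl12) and 3 (Rplp2). Of 55 other ribosomal protein genes with a promoter, 40 (72.7%) held a run of at least 5. The match describes these windows and no more.

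Footprints on Rplp0, Rplp1 and Rpl12 were lowest at 21 h of Cis, and those on Rplp2 were highest there. The scaled RNA of all 4 genes was highest at 6 h in group means and overlapped with PBS at 21 h, but the order of 6 h and 21 h for Rplp0 and Rpl12 turned with quantile normalization.

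Rplp0, whose product anchors the stalk, had footprint levels of 860 and 1016 RPKM with PBS, 895 and 852 at 6 h, and 522 and 626 at 21 h. Both 21 h libraries lay below all others, while the 6 h libraries overlapped with PBS. Its RNA was 1017 and 937 RPKM with PBS, 1178 and 1128 at 6 h, and 1016 and 999 at 21 h. RNA was thus highest at 6 h, without overlap with PBS, and at 21 h it overlapped with PBS. At 6 h the log2 difference from PBS was -0.10 for footprints (SE 0.11, adjusted p = 0.659, limma) and 0.24 for RNA (SE 0.062, adjusted p = 0.263, limma), and neither passed the threshold of 0.05.

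Rplp1, which encodes the P1 arm protein, had the highest footprint and RNA levels of the 4 genes with PBS. Footprints were 1121 and 1271 RPKM with PBS, 1023 and 1007 at 6 h, and 698 and 674 at 21 h. The 3 groups did not overlap, and the 6 h libraries stood between the others. The RNA level was 1814 and 1675 RPKM with PBS, 2043 and 1893 at 6 h, and 1729 and 1725 at 21 h, with the 6 h libraries above all others. The footprint difference at 6 h was -0.23 on the log2 scale (SE 0.082, unadjusted p = 0.0200, adjusted p = 0.157, limma), and that of RNA was 0.17 (SE 0.061, adjusted p = 0.338, limma). Both missed the threshold.

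Rplp2, the partner of P1, behaved otherwise. Its footprints were 946 and 725 RPKM with PBS, 900 and 876 at 6 h, and 968 and 992 at 21 h. The 21 h libraries were the highest, but the PBS libraries stood far apart and the first of them lay close to the 21 h level. Its RNA level was the lowest of the 4 genes, at 166 and 135 RPKM with PBS, 150 and 163 at 6 h, and 138 and 105 at 21 h. The PBS libraries overlapped with both Cis groups, while both 6 h libraries lay above those at 21 h. Those RNA values rest on 232 to 392 reads per library, against 1916 to 3761 for the other members. At 6 h the log2 difference was 0.10 for footprints (SE 0.12, adjusted p = 0.665, limma) and 0.07 for RNA (SE 0.14, adjusted p = 0.887, limma). Leaving out the second PBS library turned the former to -0.09, leaving out the second PBS library of RNA turned the latter to -0.08, and without scaling the latter was -0.0020.

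Rpl12, whose product sits at the foot of the stalk, showed the largest footprint difference of the 4. Its footprints were 842 and 862 RPKM with PBS, 593 and 626 at 6 h, and 388 and 424 at 21 h. Each step was wider than the distance between the libraries of a group. The RNA level was 779 and 773 RPKM with PBS, 810 and 870 at 6 h, and 788 and 711 at 21 h, so that RNA was slightly above PBS at 6 h and overlapped with it at 21 h.

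With 2 libraries a group, values that do not overlap are common. Footprints at 6 h lay below PBS without overlap for 2 of the 4 members, as for 28.6% of all features, and at 21 h for 3 of 4, as for 35% of all features. RNA at 6 h lay above PBS without overlap for 3 of 4, where 21% of all features did so. The values at 21 h chose the genes, and nothing is read from that count.

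**Figure D1:**
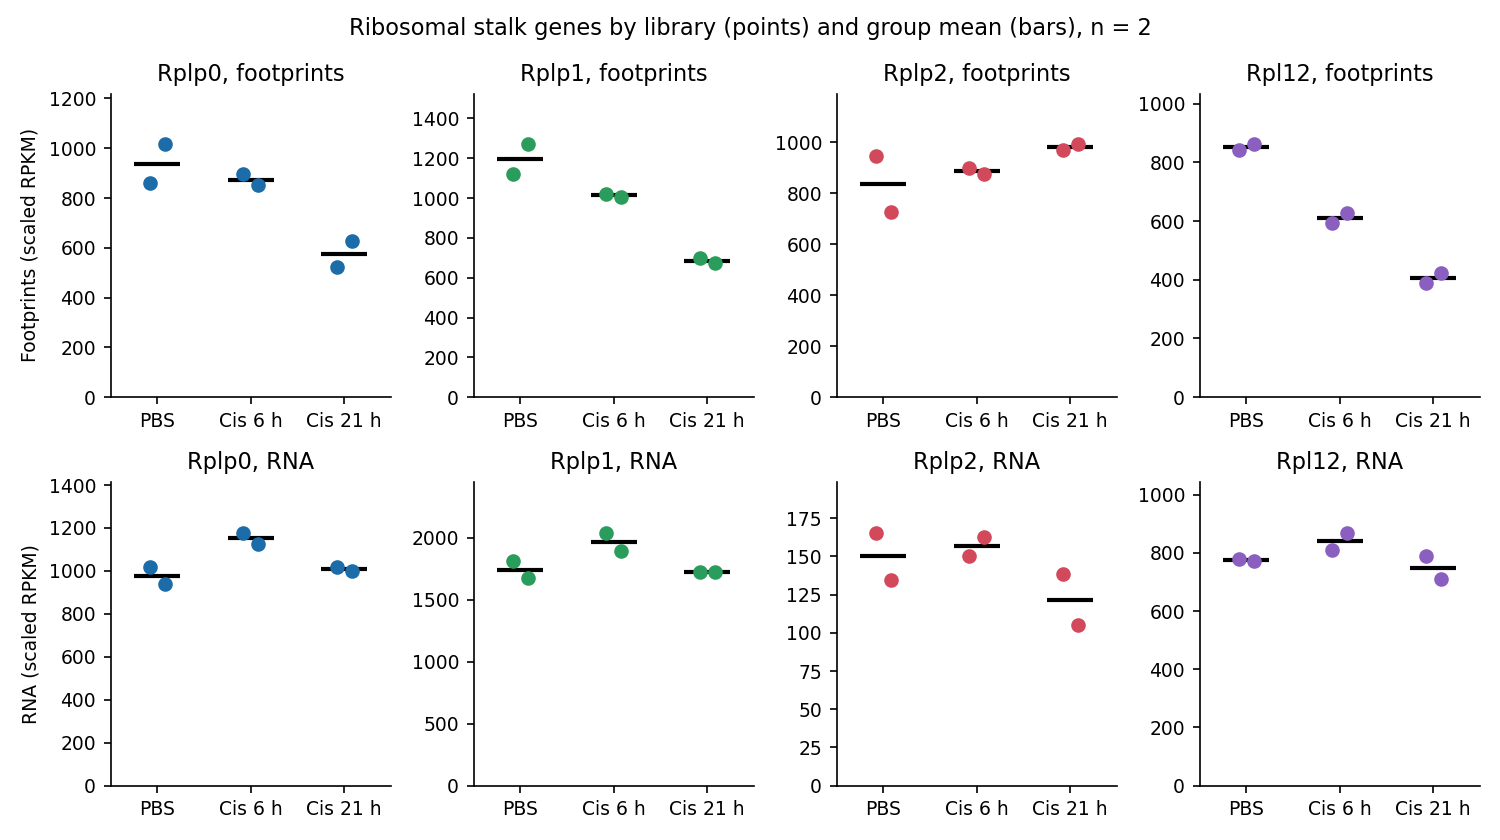
Footprint level (top) and RNA level (bottom) of the 4 stalk genes, in scaled RPKM on axes that start at 0. Points are libraries, 2 per group, and bars are group means. Footprints of Rpl12 go from 842 and 862 with PBS to 388 and 424 at 21 h, while those of Rplp2 end at 968 and 992.

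At 6 h Rpl12 footprints went from 852 ± 14.1 to 610 ± 23.4 RPKM (SD, n = 2), so that the mean fell by 28.4%. The log2 difference was -0.48 (SE 0.079) and passed the threshold (adjusted p = 0.0301, limma), in a test that shares its PBS libraries with the choice of the genes. Rpl12 was the only member called in footprints at 6 h, 1 of 4, where 0.992% of all 10383 features tested were called lower and 1.05% higher. The adjusted p ran from 0.00013 to 0.200 over 16 alternatives. The call did not survive leaving out any single library of the comparison. The adjusted p was 0.0911 without the first PBS library, 0.110 without the second, 0.186 without the first 6 h library and 0.200 without the second. It was also lost with no filter on low values (0.0754), with eBayes without a trend (0.123) and with the replicate number as a block (0.0564). The difference itself stayed between -0.52 and -0.44.

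For the other members the 95% intervals of the footprint difference at 6 h, not adjusted for the number of features, were -0.35 to 0.16 for Rplp0, -0.42 to -0.05 for Rplp1 and -0.16 to 0.36 for Rplp2. RNA of the members at 6 h was called for 0 of 4 by limma, with 2 at an unadjusted p under 0.05 (Rplp0 and Rplp1, both higher). Limma's voom, run on the reads recovered from the RPKM, called these 2 higher at adjusted p = 1.33e-05 (Rplp0) and 0.0397 (Rplp1). Over all 9443 features limma called 0% in either direction at 6 h, with 1086 features at an unadjusted p under 0.05, and voom called 57 higher and 172 lower.

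The ratio of footprints to RNA, here called translation efficiency (TE), was formed per replicate number, which names libraries and was not shown to pair them. The quotient of the group means lay within 1 SD of these ratios' mean for each member and group. With PBS it was 0.846 and 1.08 for Rplp0, with 0.759 and 0.755 at 6 h and 0.513 and 0.627 at 21 h. Rplp1 had ratios of 0.618 and 0.759 with PBS, 0.501 and 0.532 at 6 h, and 0.404 and 0.391 at 21 h. For Rpl12 the ratio was 1.08 and 1.11 with PBS, 0.732 and 0.720 at 6 h, and 0.492 and 0.597 at 21 h. In these 3 genes the 3 groups did not overlap, and the ratio was highest with PBS and lowest at 21 h. That order without overlap was found in 2.44% of the 9295 features, and since the values at 21 h chose the genes, nothing is read from it.

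Rplp2 had ratios of 5.71 and 5.38 with PBS, 5.98 and 5.38 at 6 h, and 6.99 and 9.44 at 21 h. PBS and 6 h overlapped and 21 h was above both. The last value rests on the RNA library with 232 reads of Rplp2, the fewest of any.

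**Figure D2:**
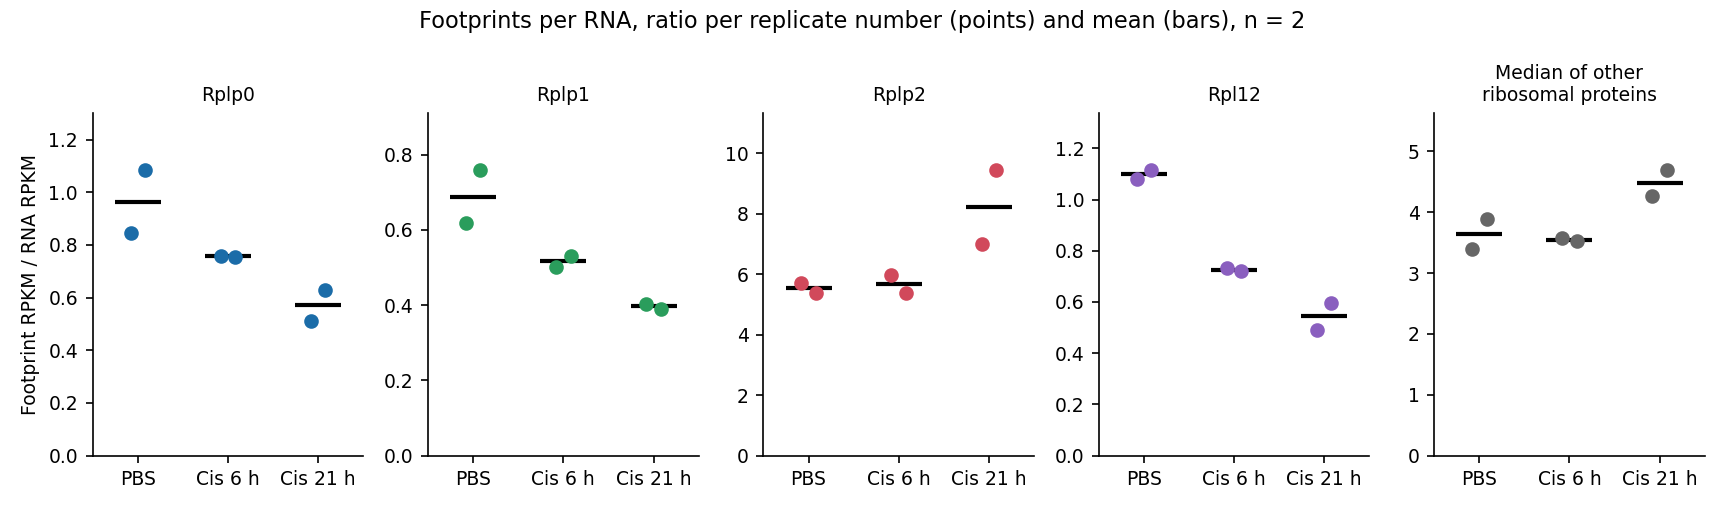
Footprint RPKM divided by RNA RPKM for each stalk gene and, at the right, the median of this ratio over the other ribosomal protein genes, each on its own axis from 0. Points are the ratios per replicate number, bars their mean (n = 2). The ratio of Rplp0, Rplp1 and Rpl12 is lowest at 21 h, at 0.391 to 0.627, and that of Rplp2 is highest there, at 6.99 and 9.44.

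At 6 h the TE difference from PBS was -0.60 on the log2 scale for Rpl12 (SE 0.11, adjusted p = 0.147, limma), -0.41 for Rplp1 (SE 0.11, adjusted p = 0.310, limma), -0.34 for Rplp0 (SE 0.14, adjusted p = 0.605, limma) and 0.03 for Rplp2 (SE 0.20, adjusted p = 0.984, limma). Limma called 0 of the 4 members, where 0% of the 9295 features were called in either direction and 710 had an unadjusted p under 0.05. Among the members 3 had such a p, all of them lower, against the PBS libraries that also served to choose them. Voom called Rpl12 lower (adjusted p = 0.00136) and no other member. The sign for Rplp2 turned on leaving out the second footprint library with PBS, the first RNA library with PBS or the first RNA library at 6 h, so no direction can be read for it.

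At 21 h the differences from PBS are those that chose the genes and carry no test. In footprints the log2 difference was -1.07 for Rpl12 (SE 0.079), -0.80 for Rplp1 (SE 0.082), -0.71 for Rplp0 (SE 0.11) and 0.24 for Rplp2 (SE 0.12). As differences of the group means these are -52.3% for Rpl12, -42.6% for Rplp1, -38.8% for Rplp0 and 17.3% for Rplp2. The fit called 3 of 4 members lower and 0 higher, where 20.2% of all features were called lower and 18.9% higher, and nothing is read from that count.

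In RNA the differences at 21 h were 0.05 for Rplp0 (SE 0.062), -0.01 for Rplp1 (SE 0.061), -0.05 for Rpl12 (SE 0.069) and -0.31 for Rplp2 (SE 0.14). The fit called 0 of 4, where 12.2% of features were called lower and 11.6% higher, and 0 had an unadjusted p under 0.05. The signs near 0 depend on the scaling, since without scaling Rplp1 stood at 0.07 and Rpl12 at 0.03, and with quantile normalization Rplp0 stood at 0.26, Rplp1 at 0.15 and Rpl12 at 0.13. Voom called Rplp2 lower in RNA (-0.29), and quantile normalization called Rplp0 higher.

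In TE the differences at 21 h were -1.02 for Rpl12 (SE 0.11), -0.78 for Rplp1 (SE 0.11), -0.75 for Rplp0 (SE 0.14) and 0.55 for Rplp2 (SE 0.20). The fit called 3 of 4 lower and 0 higher, where 0.151% of features were called lower and 0.258% higher, and this is the count the genes were chosen by. The member nearest the threshold on its inner side was Rplp0, with an adjusted p of 0.0419, and the member outside it was Rplp2, with 0.301 and the opposite sign. The call of Rplp0 was lost in 16 of 23 alternatives, that of Rplp1 in 6 and that of Rpl12 in 2, all with the sign kept.

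Between 6 h and 21 h, again as a description, the footprint differences of Rplp0, Rpl12 and Rplp1 were close to each other at -0.61 (SE 0.11), -0.59 (SE 0.079) and -0.56 (SE 0.082). Rplp2 was at 0.14 (SE 0.12). Scaled RNA was lower at 21 h than at 6 h in all 4, with -0.17 for Rpl12, -0.19 for Rplp1, -0.19 for Rplp0 and -0.37 for Rplp2 on the log2 scale, in libraries that did not overlap, as in 28.4% of all features. Without scaling, the median of all features in this RNA comparison moved by 0.14 on the log2 scale, and the members stood at -0.22 for Rplp2, -0.042 for Rplp0, -0.035 for Rplp1 and -0.013 for Rpl12. With quantile normalization Rplp0 and Rpl12 were higher at 21 h, by 0.12 each, so that no direction of RNA between 6 h and 21 h is given for them.

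Seen as a share of the reads, the 4 genes together took 0.196% and 0.204% of all footprints with PBS, 0.181% and 0.177% at 6 h, and 0.129% and 0.140% at 21 h. The groups did not overlap. The other 75 ribosomal protein genes listed took 7.63% and 7.98% with PBS, 8.19% and 8.29% at 6 h, and 8.10% and 8.62% at 21 h. The share of the stalk genes in RNA was 0.340% and 0.326% with PBS, 0.362% and 0.358% at 6 h, and 0.350% in both libraries at 21 h. Lars2, Tmem38b and Mettl26 together took 51.8% to 56.6% of the reads of an RNA library, but at most 0.00537% of footprints. The RNA shares move with these transcripts, so they are not set beside the footprint shares, and no order of PBS and 21 h is read from them.

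Against the other ribosomal proteins, Rplp0, Rplp1 and Rpl12 had low footprints for their RNA already with PBS, and Rplp2 did not. Set against the median of 71 other ribosomal protein genes in the same library, footprints with PBS were 0.496 and 0.546 for Rplp0, 0.646 and 0.683 for Rplp1, 0.545 and 0.390 for Rplp2, and 0.486 and 0.463 for Rpl12. In RNA the same quotients were 1.91 and 1.82 for Rplp0, 3.41 and 3.24 for Rplp1, and 1.46 and 1.498 for Rpl12, but 0.311 and 0.261 for Rplp2. Rplp1 thus had the second highest RNA level per length of 75 ribosomal protein genes and was at place 51 in footprints. By TE level with PBS, counted from the highest, Rplp2 was at place 23 of 75, Rpl12 at 68, Rplp0 at 70 and Rplp1 at 72. The median TE level of the others was 3.39 and 3.89 with PBS.

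With Cis, the footprint quotient of Rpl12 was 0.322 and 0.349 at 6 h and 0.211 and 0.212 at 21 h. That of Rplp0 was 0.485 and 0.474 at 6 h and 0.284 and 0.313 at 21 h. Rplp1 had 0.554 and 0.561 at 6 h and 0.380 and 0.337 at 21 h. Rplp2 had 0.488 in both libraries at 6 h and 0.527 and 0.497 at 21 h, inside the range of its PBS libraries.

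The pair of arm proteins can also be set against each other within a library. Footprints of Rplp1 divided by those of Rplp2 were 1.18 and 1.75 with PBS, 1.14 and 1.149 at 6 h, and 0.721 and 0.679 at 21 h. Rplp1 was above Rplp2 in every library with PBS and at 6 h and below it at 21 h. The quotient of Rplp1 to Rplp0 was 1.30 and 1.25 with PBS, 1.14 and 1.18 at 6 h, and 1.34 and 1.08 at 21 h, so that those 2 genes kept a similar proportion. In RNA the quotient of Rplp1 to Rplp2 lay between 10.95 and 16.4 in the 6 libraries.

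**Figure D3:**
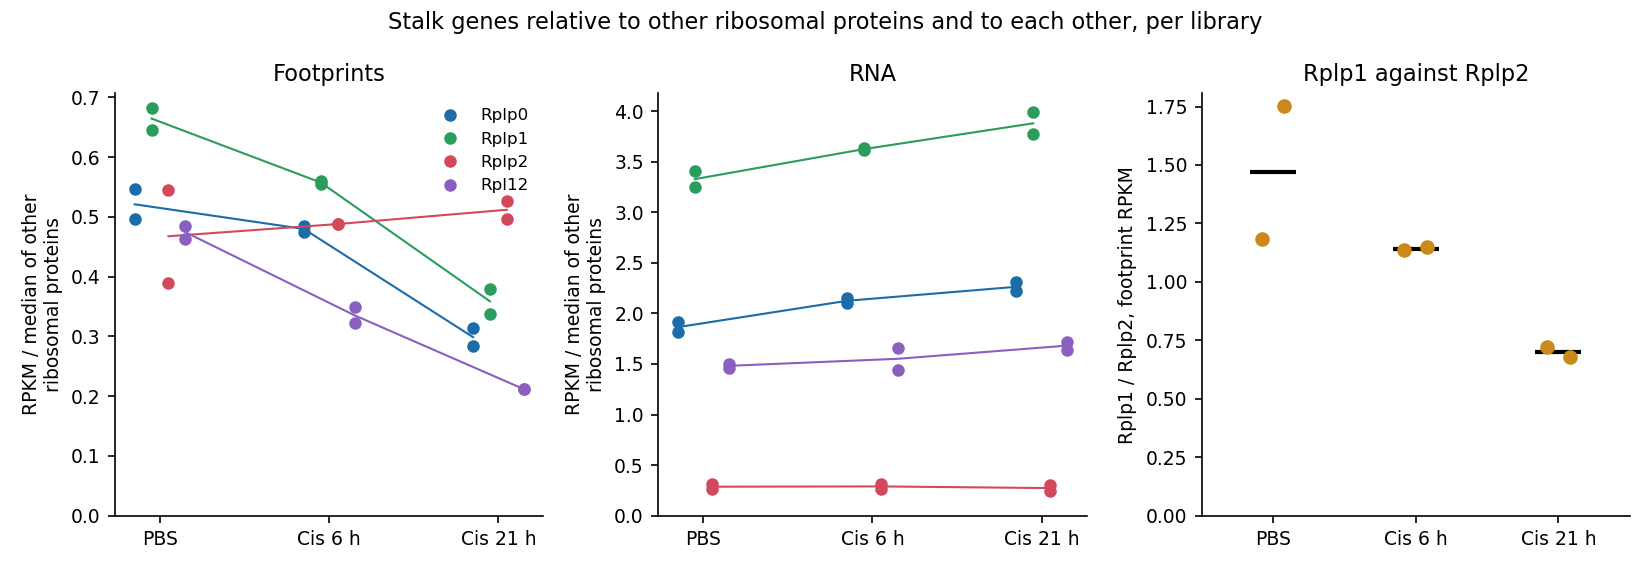
Level of each stalk gene divided by the median of 71 other ribosomal protein genes of the same library, for footprints (left) and RNA (middle), with points for libraries and lines through the group means, and footprint RPKM of Rplp1 divided by that of Rplp2 (right, bars are means, n = 2). The Rplp1 to Rplp2 quotient is 1.18 and 1.75 with PBS and 0.721 and 0.679 at 21 h.

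In footprint changes from PBS, Rpl12 and Rplp1 stood near the lower edge of the ribosomal proteins at 6 h, and Rplp0 and Rplp2 did not. At 6 h Rpl12 had the lowest footprint difference of 75 ribosomal protein genes tested, Rplp1 was at place 7 from the lowest, Rplp0 at 25 and Rplp2 at 53. Of the 71 others, limma called 0 at 6 h, with 16 at an unadjusted p under 0.05, and voom called 8 higher and 6 lower. Over all 10383 features limma called 1.05% higher and 0.992% lower, with 2217 at an unadjusted p under 0.05. Voom called 454 of all features higher and 822 lower, so nothing is read from the counts of the 71. The lowest of the 71 was Rps20 at -0.41 (adjusted p = 0.0538, limma), so that Rpl12 was not set apart from it. By TE at 6 h Rpl36a, at -0.64, was below Rpl12, and Rps20 and Rpl36a are named here after their values were seen.

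At 21 h, as a description, the 3 lowest footprint differences were those of Rpl12, Rplp1 and Rplp0, and the next was Rpl3 at -0.62. In TE the same 3 were the lowest, and the lowest of the others was Rpsa at -0.23. Rplp2 was at place 62 of 75 in TE, among the upper ones. In scaled RNA Rplp0, Rplp1 and Rpl12 held 3 of the highest places of 77, above the 73 others and Rplp2. Rplp2 was at place 21 from the lowest. Rpl12, at -0.052, was not set apart from the next gene, Rps23, at -0.067. Quantile normalization called Rpl19 and Rps29 higher in RNA, and Rplp0 was the only member it called.

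For the 71 to 73 other ribosomal proteins tested at 21 h, the median TE difference was 0.36, beside -0.04 over all features. Of them, 6 were called higher and 0 lower (0.258% and 0.151% over all features). Rpl10a, Rps13 and Rps26 were among those called higher. With quantile normalization 0 were called and the median was 0.21, with 28 higher and 4 lower at an unadjusted p under 0.05, and voom called 25 higher. Over the other ribosomal proteins the median RNA difference was -0.23, beside 0.02 over all features. In RNA 37 of 73 were called lower and 0 higher (12.2% and 11.6% over all features). Without scaling 19 were lower, and with quantile normalization 11 were lower and 2 higher, with a median of -0.04. Their median footprint difference was 0.09, with 16 of 71 called higher and 4 lower (18.9% and 20.2% over all features). The count called higher is near the share over all features, and nothing is read from it.

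**Figure D4:**
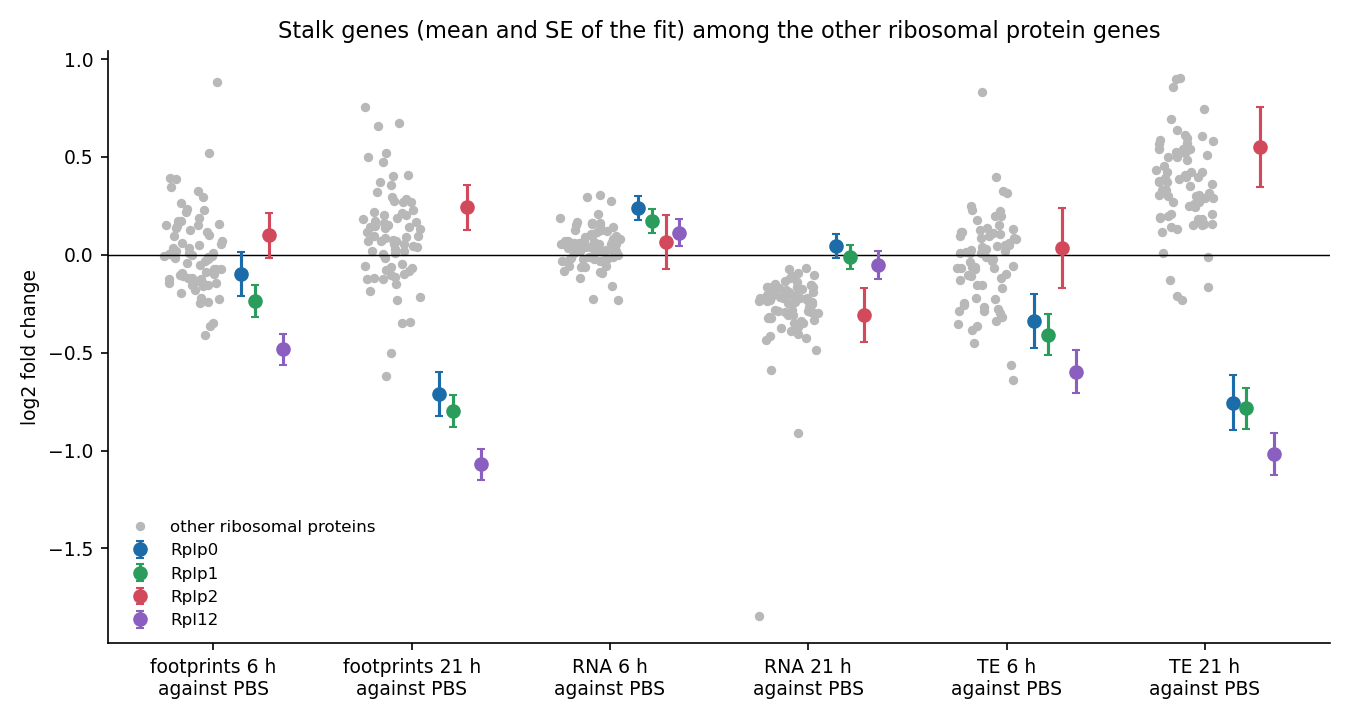
Log2 fold change against PBS of the 4 stalk genes (coloured points with the SE of the fit) and of the other ribosomal protein genes tested (grey, 71 in footprints and TE and 73 in RNA). Rplp0, Rplp1 and Rpl12 lie below all grey points in TE at 21 h, at -0.75, -0.78 and -1.02, where Rplp2 is at 0.55.

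The partners of the stalk were read against the shares over all features at 21 h, with 18.9% called higher and 20.2% lower in footprints, and 11.6% higher and 12.2% lower in RNA. At 6 h the footprint shares were 1.05% higher and 0.992% lower, with 2217 of 10383 features at an unadjusted p under 0.05. Voom called 454 features higher and 822 lower in footprints at 6 h. Among the GTPases that dock on the stalk and ABCE1, a recycling factor, 10 were tested in footprints. At 6 h limma called 0 of them in footprints, with 3 at an unadjusted p under 0.05, and voom called 1. At 21 h footprints of 3 rose, Eef2, the translocase (0.25), and Gtpbp1 (0.62) and Gtpbp2 (0.63), while Efl1, the GTPase that helps to release eIF6 from new large subunits, fell by 0.68. These 4 of 10 are close to the share called over all features. In RNA of 9 tested, Gtpbp2 rose (1.05), and Eef1a1, which brings aminoacyl-tRNA (-0.33), Eef2 (-0.32) and Efl1 (-0.81) fell. With quantile normalization Gtpbp2 was the only one of them called in RNA and in footprints Eef2 was no longer called while Eef1a1 was called higher and Gspt1 lower. Eef1a1 was also called higher in footprints without scaling and by voom, and without scaling Efl1 was no longer called in RNA. The list for the exchange factor of eEF1A had 4 genes, its partner Vars included. At 21 h footprints of Eef1b2 rose (0.30), those of Vars fell (-0.27), and RNA of Eef1g fell (-0.36). Vars lost its call without scaling and Eef1g with quantile normalization. Of the 35 genes of the lists of partners tested in TE at 21 h, limma called 0. Over all features it called 0.258% higher and 0.151% lower. Of the 35, 11 had an unadjusted p under 0.05, in both directions, beside 1183 of all 9295 features. Voom called 4 of the 35 higher (Eef1a1, Eef1b2, Eef1g and Eef2), and over all features 73 higher and 78 lower. By limma Eef2 was at 0.57 (adjusted p = 0.0672, limma) and Eef1a1 at 0.55 (adjusted p = 0.0768, limma).

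The list of factors that build the stalk and the late large subunit had 11 genes, all tested. Eif6, which keeps new large subunits from joining, rose in footprints at 6 h (0.44, SE 0.070, adjusted p = 0.0289, limma), from 567 ± 7.27 to 768 ± 16.8 RPKM (SD, n = 2), and stood at 979 ± 6.06 at 21 h. Eif6 was the only one of the 11 called in footprints at 6 h, where 1.05% of all features were called higher and 0.992% lower. The lists were chosen with earlier results of these data known, so its adjusted p is not that of an independent test. The call was lost on leaving out any 1 of the 4 libraries compared (adjusted p = 0.0775 without the first PBS library, 0.104 without the second, 0.166 without the first 6 h library and 0.223 without the second, limma). It was also lost with no filter (0.0699), with eBayes without a trend (0.125) and with the replicate block (0.0571), while the difference stayed between 0.42 and 0.46 and the adjusted p ran from 0.000231 to 0.223. At 21 h, 6 rose in footprints and 0 fell, namely Eif6 (0.79), Sbds (0.79), Zfp622 (0.68), Nmd3 (0.60), Lsg1 (0.42) and Gnl2 (0.34). In RNA 5 rose and 0 fell, namely Dusp12 (1.34), Sbds (1.13), Gnl2 (0.90), Zfp622 (0.84) and Mrto4 (0.38), the median of the list being 0.52 beside 0.02 over all features. Quantile normalization left out Gnl2 in footprints and Mrto4 in RNA, and voom called 10 higher in RNA. Mrto4 is known to hold the place of P0 on immature subunits, and Dusp12 to release it. Footprints of these 2 were at 0.01 and -0.19 at 21 h and were not called, and the RNA of Dusp12 rests on 4 to 20 reads per library.

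Of 8 genes tested for GCN2 and the sensing of collided ribosomes, footprints of Impact (0.95), Abcf3 (0.58) and Edf1 (0.37) rose at 21 h and those of Gcn1 fell (-0.62), 4 of 8, near the shares over all features. Impact is an inhibitor of GCN2, and Gcn1 is needed for its activation. In RNA, Edf1 rose (0.52) and Rack1, a scaffold of the small subunit, fell (-0.31), the latter not called with quantile normalization. Eif2ak4, the gene of GCN2 itself, was at -0.58 in footprints at 21 h (adjusted p = 0.105, limma). Voom called it lower with Gcn1 and Map3k20, and called Abcf3, Edf1, Impact and Zfp598 higher. Over all 10383 features voom called 2262 higher and 2387 lower. Of the 3 subunits of CK2, a kinase known to phosphorylate the P proteins, Csnk2a1 fell in footprints (-0.30) at 21 h. Its call was lost without scaling. In RNA Csnk2b rose (0.36) at 21 h, and quantile normalization and voom also called Csnk2a1 lower. At 6 h limma called 0 genes of these 2 lists in any measure, with 1 of the 8 at an unadjusted p under 0.05 in footprints, where voom called 1 lower.

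The genes most like the stalk were sought over the 12 libraries, by Pearson's r with the mean pattern of the 4 members, each centred on PBS within its assay, among 3442 genes with a mean of at least 10 RPKM in both assays. The 5 highest were Ccdc12 (0.96), Suclg1 (0.94), Hira (0.93), Vmp1 (0.93) and Osbpl3 (0.93). The members themselves, each part of that mean, had 0.97 for Rplp1, 0.97 for Rpl12, 0.96 for Rplp0 and -0.30 for Rplp2. The mean pattern is thus that of the first 3. The points share libraries and treatment groups, and the values describe this set only. At 21 h the log2 TE differences of the 5 were -1.06 for Ccdc12, -0.84 for Vmp1, -0.69 for Hira, -0.67 for Osbpl3 and -0.59 for Suclg1. The search used the 21 h libraries, so these low values follow from it and are no separate finding.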

How the data were processed

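Footprints and RNA of KPC cells with PBS or Cis (6 or 21 h) were sequenced in 12 libraries. The deposited values are RPKM, computed by the authors for each library separately and for 1 transcript per gene. Per the labels, cutadapt, STAR and GRCm39 were used, and versions are not given in the sources used here. Multiplied by the coding length (footprints) or transcript length (RNA), all values were whole multiples of 1 read (tolerance 0.01), which gave reads and depth. Such reads cover counting error only. Unlisted genes were set to 0.

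Median-of-ratios factors were applied to the RPKM of each assay, and features with a mean of at least 1 were kept (in both assays for TE). Limma 3.58.1 in R 4.3.3 was run on log2(RPKM + 0.5), the scale of all fold changes, by lmFit and eBayes with a trend and with all groups of an assay in 1 model. For TE, the assay-by-treatment interaction was tested in all 12 libraries. P-values are two-sided, adjusted over all features after Benjamini and Hochberg, with a threshold of 0.05. An exact permutation test of 2 against 2 libraries cannot go below p = 0.333. The fits of 6 h against PBS were also run on simulated data, whose outcome is not reported here and lends no support to the values. Variations covered the pseudocount (0.1 or 1), the filter (none, or a mean of at least 5), the scaling, the trend, the groups in the model, a replicate block, voom, TE per replicate number and leaving out each library.

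Members and gene lists were chosen with earlier results of these data known. Named genes were the 4 members, called genes of the lists, and the 5 genes most alike. Sequences came from RefSeq. Python 3.11.15, pandas 2.3.3, numpy 2.4.6 and matplotlib 3.10.9 were used.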

Additional observations from a re-analysis of the deposited data

How the results depend on the processing

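Of the 4 members, 1 was called in footprints at 6 h (Rpl12), and 0 were called with no filter, with eBayes without the trend and with the replicate block, and 0 to 1 with single libraries left out. In RNA at 6 h voom called 2 in place of 0. In RNA at 21 h, where 0 were called, quantile normalization called 1 (Rplp0) and voom 1 (Rplp2), with 0 to 1 on leaving out libraries. In TE at 6 h voom called 1 in place of 0. In TE at 21 h, where 3 were called, 0 were called with eBayes without the trend and with TE per replicate number, 1 with only the groups compared, and 1 to 3 on leaving out libraries. The 3 footprint calls at 21 h stayed in all 16 alternatives, with Rplp2 added as higher by voom and without the first PBS library. The causes were not tested.

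Signs turned for small differences. Without scaling the log2 difference in RNA was -0.00198 for Rplp2 at 6 h, and 0.071 for Rplp1 and 0.032 for Rpl12 at 21 h. With quantile normalization it was 0.15 for Rplp1 and 0.13 for Rpl12 at 21 h. On leaving out single libraries, the footprint difference at 6 h ran from -0.22 to 0.022 for Rplp0 and from -0.091 to 0.29 for Rplp2. The RNA difference ran from -0.081 to 0.21 for Rplp2 at 6 h, and at 21 h from -0.013 to 0.10 for Rplp0, from -0.071 to 0.044 for Rplp1 and from -0.13 to 0.023 for Rpl12. The TE difference of Rplp2 at 6 h ran from -0.16 to 0.23.

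Same-numbered libraries did not deviate together (correlation of their differences from -0.121 to 0.087 between groups), so the numbers were not taken as pairs. With the replicate block the call of Rpl12 in footprints at 6 h (adjusted p = 0.0564, limma) and that of Rplp0 in TE at 21 h (adjusted p = 0.0560, limma) were lost, and no other member's call moved. Over all features, the number called in footprints at 6 h was 212 and ran from 0 (eBayes without the trend) to 1276 (voom). In RNA at 21 h it was 2245 and ran from 1083 to 3004, in TE at 21 h 38 and from 0 to 151, and in TE at 6 h 0 and up to 14. Without scaling TE at 21 h had 18 higher and 16 lower in place of 24 and 14. RNA depth limits Rplp2 most, with a counting error of up to 6.57% in a library.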
